A study of Mus musculus with 101 samples.

Results

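DNA methylation of 28 mouse embryonic stem cell lines whose names begin with B1 was compared with that of 20 lines whose names begin with B3A. All were derived from Diversity Outbred stock, an outbred mouse population descended from several inbred founder strains, so that each line has its own genotype, and all were grown in Serum/LIF +2i. Methylation was read by enzymatic methyl sequencing (EM-seq), in which enzymes convert unmethylated cytosines, after capture with a Twist panel. Neither the meaning of the prefixes nor the sex of the lines is given in the sources used here. The region table holds 85 columns over 4 prefixes. The 48 columns compared were chosen by name, and 773 of its 868 regions had a value in at least 80% of the columns of each prefix. Of the 48 columns, 21 match a single library title, and the other 27 entered by their prefix alone. A final N, whose meaning is not given, ends 6 of 28 B1 names and 16 of 20 B3A names, so prefix and final N partly move together. For 5 B1 and 4 B3A lines the labels list a second library, marked WA. The rest are called lines of 1 title below, including B1_A16, which no title names. The pair of prefixes was chosen with the group means known, and the p-values do not allow for that choice. A line is the replicate here. The number of reads behind a value is not in the tables, so depth is unknown.

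Embryonic stem cells in medium with 2i, inhibitors of MEK and GSK3, are held in a naive state and are known for low genome-wide methylation, because the methylation passed on at cell division is not fully maintained. The panel joins regions of distinct biology. Imprinted control regions carry methylation on only 1 parental allele, protected from the erasure that follows fertilisation. Promoters of germline genes are often rich in CpG sites and are silenced in other cells by methylation. Genes of the 2-cell stage, such as the Zscan4 and Usp17-like families, are expressed as the embryonic genome is switched on and in a small share of cultured stem cells.

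Promoter windows of 7 genes are printed here as examples of promoters with more and with fewer CpG sites, which are described further below. They are RefSeq windows on GRCm38.p6 (the NCBI release of mm10), from 250 bases before to 50 bases after the gene's start, 5′ to 3′ on the gene's strand, with each CpG site in capitals. The germline promoters, chosen with their values known, are Slc25a31 (chr3:40708621-40708920, plus strand, 22 CpG sites), Ddx4 (chr13:112652261-112652560, minus strand, 38), Tex19.1 (chr11:121145893-121146192, plus strand, 16) and Sycp3 (chr10:88459337-88459636, plus strand, 15). Against them stand 3 genes of the authors' 2-cell stage category, Zscan4d (chr7:11166099-11166398, minus strand, 3 CpG sites), Usp17la (chr7:104856766-104857065, plus strand, 1) and Pramel31 (chr4:144357714-144358013, plus strand, 3). The median over all 32851 RefSeq windows was 7 CpG sites in 300 bases.
Slc25a31: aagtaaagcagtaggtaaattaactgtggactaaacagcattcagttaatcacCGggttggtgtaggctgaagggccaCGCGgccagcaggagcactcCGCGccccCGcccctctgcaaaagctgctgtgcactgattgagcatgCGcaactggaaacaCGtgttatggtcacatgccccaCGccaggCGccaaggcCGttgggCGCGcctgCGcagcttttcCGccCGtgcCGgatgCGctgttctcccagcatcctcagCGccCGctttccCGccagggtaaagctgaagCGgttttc
Ddx4: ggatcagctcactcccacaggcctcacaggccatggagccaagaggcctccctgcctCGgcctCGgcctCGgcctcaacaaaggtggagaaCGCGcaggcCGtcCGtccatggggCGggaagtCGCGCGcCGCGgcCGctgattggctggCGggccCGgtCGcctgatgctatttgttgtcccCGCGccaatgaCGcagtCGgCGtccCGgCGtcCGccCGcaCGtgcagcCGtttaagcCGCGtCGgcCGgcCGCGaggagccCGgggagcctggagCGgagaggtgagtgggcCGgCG
Tex19.1: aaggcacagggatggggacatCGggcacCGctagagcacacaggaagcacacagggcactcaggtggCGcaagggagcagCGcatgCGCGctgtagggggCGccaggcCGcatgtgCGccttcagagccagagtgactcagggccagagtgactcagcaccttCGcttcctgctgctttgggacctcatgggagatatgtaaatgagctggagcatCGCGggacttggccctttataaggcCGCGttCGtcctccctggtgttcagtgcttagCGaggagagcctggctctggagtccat
Sycp3: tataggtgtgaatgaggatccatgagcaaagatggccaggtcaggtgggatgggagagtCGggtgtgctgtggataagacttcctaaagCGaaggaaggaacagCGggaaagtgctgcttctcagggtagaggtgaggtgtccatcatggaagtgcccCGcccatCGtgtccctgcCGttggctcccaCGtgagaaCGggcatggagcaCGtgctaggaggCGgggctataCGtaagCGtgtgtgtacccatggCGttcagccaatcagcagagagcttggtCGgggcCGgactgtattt
Zscan4d: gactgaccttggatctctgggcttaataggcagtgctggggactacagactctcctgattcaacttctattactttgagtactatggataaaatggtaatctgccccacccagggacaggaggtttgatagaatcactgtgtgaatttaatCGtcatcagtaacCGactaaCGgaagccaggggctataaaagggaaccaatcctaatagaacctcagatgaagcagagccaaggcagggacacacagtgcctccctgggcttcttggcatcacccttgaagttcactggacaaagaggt
Usp17la: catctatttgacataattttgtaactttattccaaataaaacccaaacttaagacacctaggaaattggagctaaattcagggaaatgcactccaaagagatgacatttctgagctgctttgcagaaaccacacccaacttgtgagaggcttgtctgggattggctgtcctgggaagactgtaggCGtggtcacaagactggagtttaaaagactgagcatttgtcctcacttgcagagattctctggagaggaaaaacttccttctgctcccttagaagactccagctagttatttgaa
Pramel31: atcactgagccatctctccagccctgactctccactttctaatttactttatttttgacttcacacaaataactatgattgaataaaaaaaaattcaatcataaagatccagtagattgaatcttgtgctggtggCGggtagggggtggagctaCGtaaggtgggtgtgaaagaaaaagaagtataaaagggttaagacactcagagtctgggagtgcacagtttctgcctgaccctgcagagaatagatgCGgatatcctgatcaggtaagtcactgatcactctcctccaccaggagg

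B1 lines were more methylated than B3A lines over the panel. The library mean, which is the mean methylation of a line over the 773 regions, was 24.3% ± 9.22 (SD, n = 28) in B1 and 12.7% ± 7.68 (SD, n = 20) in B3A. B1 lines ran from 7.88% through a median of 25.7% to 43.5%, and B3A lines from 3.04% through 10.7% to 28.9%. The groups overlapped: 8 of 20 B3A lines lay below the lowest B1 line, 10 of 28 B1 lines lay above the highest B3A line, and 18 of 20 B3A lines lay below the B1 median. The difference was 11.6 percentage points (two-sided permutation test over lines, 100000 resamples, p = 4e-05). Set against each other, the B3A mean was 52.4% of the B1 mean.

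**Figure D1:**
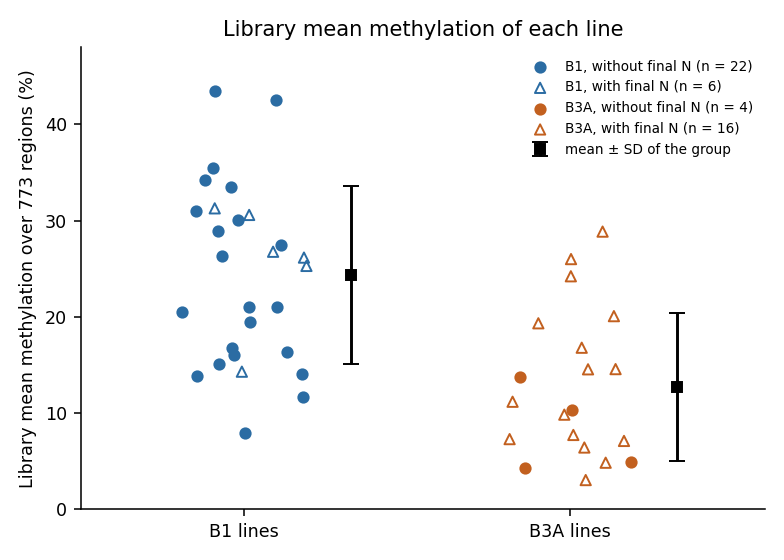
Library mean methylation (%, y axis) of each B1 and B3A line, as points, with the group mean and SD in black; filled circles are lines without and open triangles lines with a final N. B3A lines sit lower (mean 12.7%) than B1 lines (mean 24.3%), with overlap between 7.88% and 28.9%.

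The direction was the same with and without the final N. Among lines without it, B1 exceeded B3A by 15.6 points (22 against 4 lines, permutation test, p = 0.0053), and among lines with it by 11.9 points (6 against 16 lines, permutation test, p = 0.00415). These differences were 3.78 points apart (permutation test, p = 0.539). Values were missing slightly more often in B3A lines, with a median of 4 of 773 regions without a value against 1.5 in B1 lines, and at most 34 in any line. B1_B37 and B1_B37N share a number, were counted as 2 lines and may not be independent. Their centred region profiles correlated with r = 0.970 over regions, higher than all but 2 of the 378 B1 pairs (median 0.905), and leaving out B1_B37N gave a difference of 11.9 points.

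The difference was spread over nearly the whole panel. On the log2 odds scale, limma called 647 of 773 regions (83.7%) at an adjusted p under 0.05, and all 647 were more methylated in B1. No region was called with B3A higher, also at an unadjusted p under 0.05. The B1 mean was the higher one in 767 regions. In no region did the 2 groups of lines separate without overlap. The median difference was 9.86 points, and the range was -1.96 to 33.9 points. Of the 126 regions not called, 102 had a mean below 5% over the 48 lines.

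How far a region differed followed how methylated it was. Across the 773 regions the difference in points and the mean level correlated with r = 0.950, and B1 and B3A means with r = 0.976, given as descriptions because regions share their lines. In the 559 regions with a mean of 5% or more, the B3A mean was at the median 52.1% of the B1 mean. The quartiles of this share were 47.1% and 57.1%, and its 5th and 95th percentiles 36.9% and 66.5%.

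**Figure D2:**
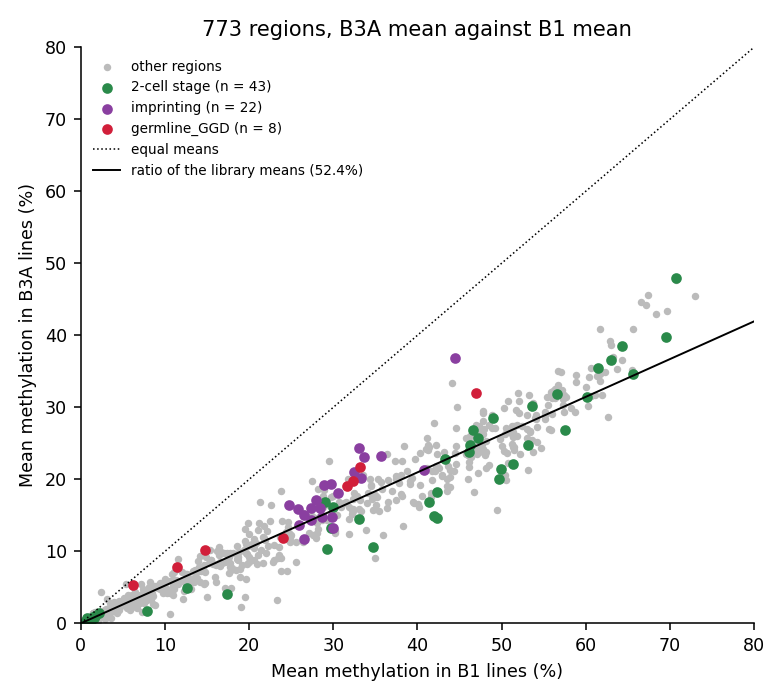
Mean methylation (%) of each of the 773 regions in B3A lines (y axis) against B1 lines (x axis). Points follow the solid line at 52.4%, the ratio of the library means; most germline_GGD regions (red) lie above it, and several 2-cell stage regions (green) lie below it.

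The 10 regions with the largest raw differences, from 30.2 to 33.9 points, all had B1 means near or above 50%. The largest was at a region overlapping Igbp1b (chr6:138658294-138658794, mm10), at 25.3%, 69.3% and 94.98% in the lowest, median and highest of 27 B1 lines and 6.44%, 28.6% and 63.1% in 20 B3A lines. Every B3A line was below the B1 median there, and 9 were below the lowest B1 line (difference 33.9 points, limma adjusted p = 2.11e-05). The next lay within the predicted gene Gm41005 (chr13:75838838-75839508) and ran 1.47%, 46.1% and 82.6% in B1 lines against 0%, 11.8% and 47.7% in B3A lines (33.7 points, adjusted p = 2.4e-05). The others lay in the predicted genes Gm51684 and Gm5576, in Nxf3, an X-linked gene of the nuclear RNA export factor family, in Scara5, a scavenger receptor gene, and far from any gene but nearest Gm52261, and at the promoters of Cox7b2, Pramel31 and Nfia. Nfia encodes a transcription factor of the nuclear factor I family, and its promoter region averaged 61.9% ± 20.2 (SD, n = 27) in B1 and 31.7% ± 23.3 (SD, n = 17) in B3A. Those 10 regions come from 6 of the authors' categories.

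The smallest raw differences were at regions with almost no methylation in any line, and at a few promoters where single B3A lines were high. Cd59a, which encodes an inhibitor of complement, had the lowest difference: its promoter region averaged 2.41% ± 3.80 (SD, n = 28) in B1 and 4.37% ± 7.71 (SD, n = 20) in B3A. The B3A median there was 1.26% and the highest B3A line 32.6% (adjusted p = 0.336). Ccdc73 had 5.33% ± 3.60 in B1 and 5.41% ± 7.66 in B3A, with medians of 4.69% and 3.20% (adjusted p = 0.333).

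Removing each library's mean split the panel by level. After subtraction limma called 595 regions (77%): 252 with B1 higher (32.6%) and 343 with B3A higher (44.4%). All 214 regions with a mean below 5% were called with B3A higher, and all 60 regions of 45% or more were called with B1 higher. Between 15% and 25%, 11 of 115 regions were called with B1 higher and 8 with B3A higher. A region near 0 in both groups gets a centred difference close to minus the difference of library means by construction, so these calls follow the level (r of centred difference and level 0.950 across regions).

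**Figure D3:**
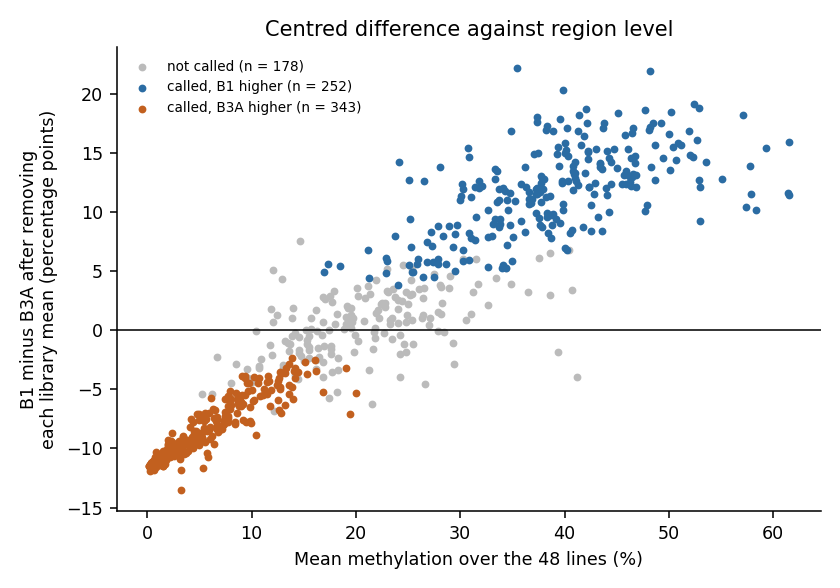
B1 minus B3A after subtracting each library mean (percentage points, y axis) against the mean level of the region over the 48 lines (%, x axis), with calls coloured. The 343 regions called with B3A higher are at low levels and the 252 called with B1 higher at high levels.

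Other ways of removing the shared level gave other counts. Centring on the log2 odds scale called 420 (54.3%), 215 regions with B1 higher (27.8%) and 205 with B3A higher (26.5%). Dividing by the library mean called 273 (35.3%), 45 (5.82%) with B1 and 228 (29.5%) with B3A higher. Subtraction and both of these called 212 regions alike (27.4%), 34 with B1 higher (4.4%) and 178 with B3A higher (23%), of which 149 had a mean below 5%. A region near 0 in both groups comes out B3A higher by construction in all 3 ways. Nanog, at 0.384% in B1 and 0.339% in B3A, was called so by each. The calls below 5% therefore do not show a departure from the shared level. Among the 34 were Tnfrsf1a, the gene of a receptor for tumour necrosis factor, at 26.1% of its B1 level in B3A lines, Rec114, a gene needed for meiotic recombination, at 30.7%, Usp17lb at 30.6%, Zscan4d at 34.6% and Tdpoz3 at 35.6%. Of the 29 regions of 5% or more called alike with B3A higher, 9 were from the germline categories (of 101 such regions of 5% or more, where the panel had 29 of 559) and 11 from aging_Meer (of 155). Examples are the germline genes Sycp3 at 72.4%, Mael at 69.0% and Ddx4 at 67.8%, and Gata4 at 61.8%, Sez6l2 at 66.9% and Icam4 at 58.8% from aging_Meer. Both sets of examples were picked after their values were seen.

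Letting each region have its own slope on the library's mean log2 odds left no single region past the threshold. limma called 0 of 773 regions (0%), with 100 at an unadjusted p under 0.05, of which 48 had B1 higher and 52 B3A higher. Of the coefficients, 385 were above and 388 below 0. The covariate is the mean over these same regions, so the coefficients average about 0 by construction. Their near-even split is therefore a description, and regions above 0 go with others below 0. The smallest adjusted p, 0.0599, was shared by a pair of regions, which are named for that reason. One lies in Morc1, a gene required for silencing transposons in male germ cells (chr16:48430986-48431486): B1 lines ran 0%, 8.30% and 45.1%, B3A lines 0%, 0.754% and 4.52%, and every B3A line was below the B1 median. The other lies in Tnfrsf1a (chr6:125360138-125360638): B1 lines ran 2.33%, 34.2% and 62.8%, and B3A lines 1%, 6.60% and 28.7%. Their coefficients were 1.49 ± 0.35 and 1.62 ± 0.40 (SE) in log2 odds. Among the other settings tried, 6 called between 2 and 10 regions, and leaving out 1 line at a time called 0 to 8.

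Taken by category, 10 of the authors' 11 categories were more methylated in B1 lines (permutation tests over lines, adjusted over 11 categories, p from 9.17e-05 to 0.00187). The mean of the 2-cell stage category differed most, by 17.5 points, and aging_Young least among the 10, by 7.30 points. Regions named nPSC-associated by the authors were near 0 in both groups, at 0.455% ± 0.490 (SD, n = 28) in B1 and 0.307% ± 0.425 (SD, n = 20) in B3A (permutation test, adjusted p = 0.286). Relative to the library mean, germline_GGD was lower and 2-cell stage higher in B1 lines, by division and with the library mean as covariate. Subtraction gave the same signs but follows the level, so it adds no separate support. A category above the library mean in both groups, such as 2-cell stage, comes out higher in B1 by subtraction even at an equal share.

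Taken as a category mean, though not each alike, the 8 germline_GGD regions were, for their library mean, more methylated in B3A lines than in B1 lines. Their genes act in germ cells: Dazl and Ddx4 encode RNA-binding proteins of germ cells, Mael, Mov10l1 and Piwil2 belong to the piRNA pathway that silences transposons, Tex19.1 limits transposons, Slc25a31 is a testis ADP/ATP carrier, and Taf7l is a testis relative of a general transcription factor. The category mean was 25.1% ± 9.37 (SD, n = 28) in B1 and 15.96% ± 9.23 (SD, n = 20) in B3A, a raw difference of 9.11 points (permutation test, adjusted p = 0.00187). As a share of the library mean it ran 84.1%, 102% and 122% in the lowest, median and highest B1 line and 85.3%, 124% and 200% in B3A lines (means 104% and 129%, permutation test, adjusted p = 0.00011). The groups overlap on this scale, with B3A lines reaching far higher. With the library mean as covariate, B1 was lower by 3.10 ± 0.73 points (SE, permutation test, adjusted p = 0.0011), and no line left out in turn took the adjusted p above 0.011.

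All 8 covariate coefficients of the germline_GGD regions were below 0, and 5 had an unadjusted p under 0.05, where 52 of all 773 regions had this with B3A higher. Slc25a31, whose promoter is printed above with 22 CpG sites, ran 10.4%, 34.5% and 58.8% in B1 lines and 3.54%, 20.5% and 43.9% in B3A lines. Its B3A mean was 65.5% of the B1 mean (raw difference 11.5 points, limma adjusted p = 0.00289). All of its 22 CpG sites with values in that window were higher in B1, with site means of 6.17% to 51.9% in B1 and 3.80% to 36.7% in B3A. Mael ran 3.19%, 13.02% and 33.5% in B1 lines and 3.22%, 7.58% and 33.1% in B3A lines, nearly the same extremes with a lower B3A median (4.56 points, adjusted p = 0.0191). Its call was lost with the final N as a term (limma adjusted p = 0.0624), on untransformed percentages (0.0519), with lines of 1 title (0.0604) and within lines without or with a final N (0.0728 and 0.445). Ddx4 ran 4.40%, 11.1% and 24.3% against 1.28%, 7.39% and 18.1%, and 27 of its 30 measured sites were higher in B1 (3.70 points, adjusted p = 0.00475). Tex19.1 was low throughout, at 1.31%, 4.73% and 18.4% in B1 and 0%, 3.93% and 26.5% in B3A, with 7 of 10 sites higher in B1 (0.891 points, adjusted p = 0.264). Piwil2, the only one of the 8 not at a promoter window, averaged in B3A lines 49.5% of its B1 mean, below the median of 52.3% over all 773 regions.

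For germline_GGD the centred difference was -2.46 points (permutation test, adjusted p = 0.000165), but that value rests on the low-level members. The centred differences of Tex19.1, Ddx4 and Mael were -10.7, -7.88 and -7.01, and the other 5 members lay between -0.12 and 3.38. The median over the 8 regions in place of the mean gave -0.11 points (adjusted p = 0.921), and the covariate fit of that median gave -3.23 points (adjusted p = 0.0542). Without the lines bearing a final N, which leaves 4 B3A lines, the covariate difference was -1.54 points (adjusted p = 0.331). With only those lines it was -5.80 points (adjusted p = 0.00368).

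**Figure D4:**
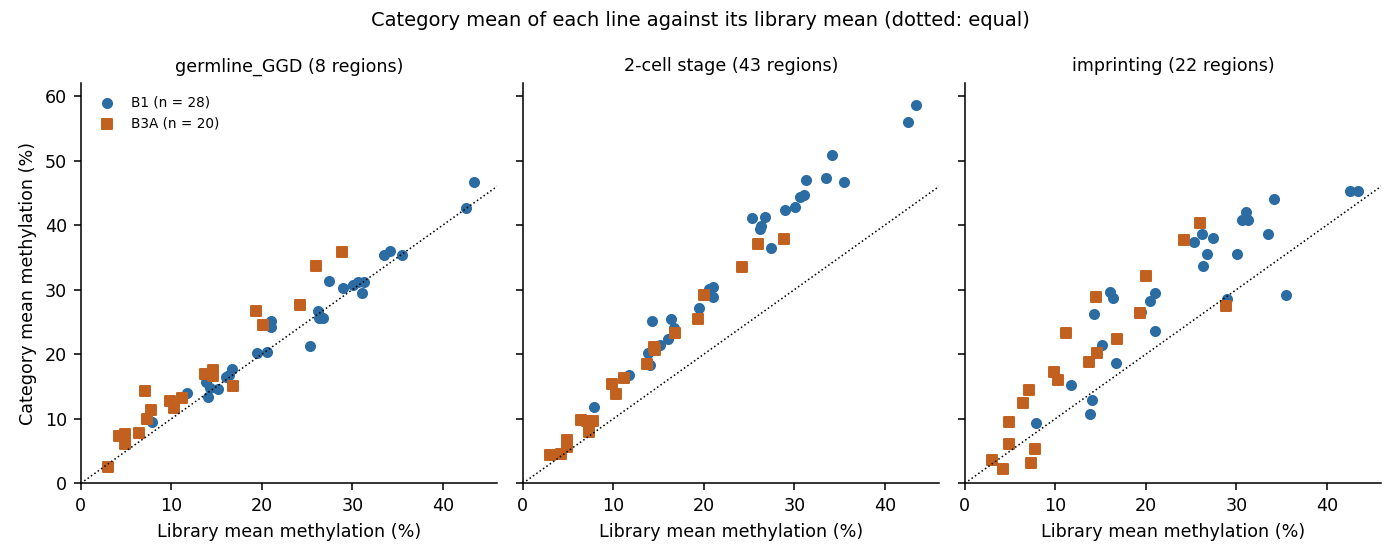
Category mean methylation (%, y axis) of each line against its library mean (%, x axis) for germline_GGD, 2-cell stage and imprinting; blue circles are B1 lines, orange squares B3A lines, and the dotted line marks equal values. At the same library mean B3A lines tend to lie above B1 lines for germline_GGD, and imprinting scatters most.

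The 2-cell stage category, with 43 of its 86 regions kept, went the other way. Its mean was 35.02% ± 12.6 (SD, n = 28) in B1 and 17.5% ± 10.8 (SD, n = 20) in B3A, which is 145% and 136% of the library means (permutation test, adjusted p = 0.0209). Zscan4d, a gene of the telomere-associated Zscan4 family, has only 3 CpG sites in the window printed above. Its region ran 7.97%, 46.2% and 73.9% in 24 B1 lines and 0%, 7.51% and 36.99% in 17 B3A lines, and all 17 were below the B1 median (27.7 points, limma adjusted p = 3.54e-05). Usp17la, of a family of ubiquitin-specific proteases and with 1 CpG site in its window, ran 6.67%, 50.3% and 83.6% against 0%, 18.2% and 52.9% (28.5 points, adjusted p = 8.96e-05). Pramel31, of the PRAME-like family, ran 23.5%, 60.2% and 91.3% against 5.67%, 26.7% and 59.4% (30.8 points, adjusted p = 2.11e-05). Zscan4, Usp17-like, Pramel and Tdpoz genes have near-identical copies, so their values may mix copies and are uncertain. With the library mean as covariate the category was 1.77 ± 0.65 points higher in B1 (adjusted p = 0.0362), but the median over its regions gave 0.14 (adjusted p = 0.984), and leaving out any of B1_B37, B1_B37N, B3A_10N, B3A_37N, B3A_9N or B3A_44N took the adjusted p above 0.05, up to 0.128. Only 24 of its 43 covariate coefficients were above 0.

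Of the 29 genes on a list of 2-cell stage genes, 14 have a region in the table and 8 regions were kept. limma called 7 of the 8 with B1 higher, against 83.7% of the panel, and their median B3A share was 41.9% of B1. The exception was Arg2, the gene of an arginase, at 0.737% in B1 and 0.675% in B3A. Tdpoz3 ran 10%, 40.7% and 86.4% in B1 lines and 0%, 12.5% and 36.4% in B3A lines, and Duxf3, a copy of the Dux activator of 2-cell stage genes, averaged 46.2% and 24.7%.

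Imprinted control regions differed by about as many points as the library mean did. The 22 kept regions of the imprinting category averaged 30.5% ± 10.5 (SD, n = 28) in B1 and 18.4% ± 11.5 (SD, n = 20) in B3A, and their raw difference of 12.1 points (adjusted p = 0.000623) lay close to the 11.6 points of the library mean. The centred difference was 0.53 points (adjusted p = 0.814) and the covariate difference -0.67 ± 1.91 points (adjusted p = 0.758). As a percent of the library mean it stood at 128% in B1 and 143% in B3A, a difference of -14.6 (permutation test, adjusted p = 0.258), which with only lines of 1 title was -29.9 (23 against 16 lines, permutation test, adjusted p = 0.0164). In B3A lines this category ran from 43.6% to 208% of the library mean, and its SD of 48.7% was the largest of the 11 categories. limma called 21 of the 22 with B1 higher, against 83.7% of the panel. The largest difference was at the control region near H19, a maternally expressed non-coding RNA (chr7:142580501-142582201): 16.8%, 41.7% and 58.9% in B1 lines against 2.92%, 23.2% and 47.2% in B3A lines (19.4 points, adjusted p = 3.69e-05). The smallest was in Trappc9, within which the imprinted RNA Peg13 lies (chr15:72809272-72809627), at 12.7%, 45.9% and 77.6% against 6.71%, 41.2% and 82.9% (7.62 points, adjusted p = 0.115).

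The other well-known control regions differed by values in between. Snrpn, at a locus of imprinted genes expressed from the paternal allele, averaged 35.7% ± 9.83 and 23.2% ± 11.9. The Kcnq1ot1 promoter, the start of a long non-coding RNA that silences neighbouring genes, averaged 33.7% ± 10.04 and 23.2% ± 14.4. Mest, Peg3, Plagl1, Grb10 and Igf2r averaged in B3A lines 59.2%, 66.4%, 56.8%, 61.2% and 60.6% of their B1 mean. At Impact the share was 44.1%. Over the 22 regions the median was 59.9%, against 52.3% over all 773 regions, with a median covariate coefficient of -0.06.

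A list of 43 imprinted genes reached 26 kept regions, of which 25 were called with B1 higher (83.7% on the panel). The largest differences on it were outside the control regions, at Magel2 (41.6% and 17.6%) and at a second region of Peg10 (67.4% and 45.7%), both placed by the authors in the Cancer category.

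The other germline category had a covariate difference of the same sign, less firmly. The germline_Dahlet category held 113 kept regions with means of 25.5% ± 10.04 (SD, n = 28) and 13.8% ± 8.72 (SD, n = 20). Its covariate difference was -1.03 ± 0.38 points (adjusted p = 0.0362), its centred difference 0.09 points (adjusted p = 0.814), and leaving out any of 8 lines (B1_B37, B1_B37N, B3A_7N, B3A_9N, B3A_10N, B3A_11N, B3A_37N or B3A_44N) took the covariate call above 0.05, up to 0.128. Of its 113 coefficients 70 were below 0, where 388 of 773 were on the panel, and at promoter windows 54 of 86 were. At an unadjusted p under 0.05 stood 15 below and 3 above 0, against 52 and 48 of 773 on the panel. Sycp3, part of the synaptonemal complex of meiosis, ran 5.72%, 21.98% and 41.8% in B1 lines and 2.97%, 13.1% and 42.9% in B3A lines. Its highest B3A line matched the highest B1 line (6.24 points, limma adjusted p = 0.0158), and its B3A mean was 72.4% of its B1 mean.

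A list of 50 germline genes reached 35 kept regions, 8 of them those of germline_GGD. Most of the others are in germline_Dahlet, so the list is not a set separate from those categories. Of the 35, 32 were called with B1 higher (83.7% on the panel) and 29 had a covariate coefficient below 0, where 388 of 773 did on the panel. Dpep3, a dipeptidase gene of the testis, differed most: 15.3%, 59.1% and 88.0% in B1 lines against 4.52%, 23.9% and 72.0% in B3A lines (25.4 points, adjusted p = 0.000104). Tuba3b and Tuba3a, testis tubulins, averaged 57.1% and 34.96%, and 31.8% and 18.9%. Tex19.2 averaged 48.8% and 29%, Asz1, a piRNA pathway gene, 36.5% and 19.8%, and Sycp1 29.96% and 17.7%. The 3 regions not called, at Rpl10l, D1Pas1 and Tex19.1, had means of 6.14% or less in both groups. Morc1, with 11.99% of its B1 level in B3A lines, stood apart from the other 34.

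Of 19 listed pluripotency genes, 3 had a region, and these regions were almost unmethylated throughout. They cannot check the labelled cell state, because the promoter of Otx2, a gene of the lineage list, was similarly low. The promoters of Zfp42 and Nanog and a region of Tbx3, factors of the naive state, averaged 0.756%, 0.384% and 0.269% in B1 lines and 0.440%, 0.339% and 0.143% in B3A lines, and no line exceeded 3.46% at any of them. Lineage genes were mixed. A region in Pax6, needed for eye and brain formation, averaged 67.2% ± 18.2 (SD, n = 28) in B1 and 44.3% ± 19.3 (SD, n = 19) in B3A, while the promoter of Otx2 was at 0.780% and 0.714%. Of 10 kept regions of the lineage list 7 were called with B1 higher (83.7% on the panel), among them Gata4 and Sox17, regulators of endoderm (16.2% and 9.99%, and 5.89% and 3.59%). At Lhx9 and Nkx2-1 lines ranged widely, with SDs of 13.2 to 17.7 points around means of 9.40% to 20.02%, and only 1 of their 3 regions was called (Lhx9, adjusted p = 0.0271), a call lost under several alternatives.

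Genes of the methylation machinery were represented by Tet3, a dioxygenase that starts demethylation, and Dnmt3l, a cofactor of the de novo methyltransferases. The Tet3 region ran 27.1%, 72.1% and 89.7% in B1 lines and 17.4%, 45.99% and 75.8% in B3A lines. The Dnmt3l promoter ran 9.04%, 33.1% and 81.4% against 1.22%, 14.8% and 46.1%. Both were called with B1 higher (22.04 and 17.1 points, adjusted p = 0.000179 and 0.000245). Their covariate coefficients were -0.07 ± 0.15 and -0.12 ± 0.16 (SE).

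The remaining categories did not pass the test with the library mean as covariate. Cancer, aging_Meer and B6J vs 129 had covariate differences of 0.20, 0.30 and -0.16 points, and Lineage-associated, aging_Young and aging_shared of -0.12, -0.07 and 0.32 points (adjusted p from 0.139 to 0.758). As a percent of the library mean, aging_shared stood at 82.9% in B1 and 95.1% in B3A (permutation test, adjusted p = 0.00924), a category of 11 regions of which 6 were below 5%. Cancer stood at 110% and 108% and aging_Meer at 104% and 102% (adjusted p = 0.0341 and 0.0328). Within the category B6J vs 129 the B3A share of the B1 mean ran from 12.1% at a region of Irak3, the gene of a regulator of innate immune signalling, to 181% at Cd59a.

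On the X chromosome, 11 of 13 kept regions were called with B1 higher (83.7% on the panel), and 11 of 13 covariate coefficients were below 0 (388 of 773 on the panel). Their median B3A share was 59.1% of B1, against 52.2% for the 760 regions on other chromosomes. All but 1 of these 13 regions are in the germline categories. Within those categories the median share was 58.9% for the 12 regions on the X chromosome and 54.7% for the 109 on other chromosomes, and 10 of 12 and 68 of 109 coefficients were below 0. This difference was not tested. Nxf3 and Nxf2, members of 1 family on this chromosome, stood in B3A lines at 39.4% and 58.7% of their B1 means.

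The B3A mean was a larger share of the B1 mean at promoters with more CpG sites. Among the 151 promoter windows whose regions averaged 5% or more, the median B3A share of the B1 mean was 44.7% with 0 to 4 CpG sites (19 windows), 51.6% with 5 to 9 (40 windows), 53.9% with 10 to 19 (64 windows) and 59.3% with 20 or more (28 windows). CpG sites were counted in the window, but the share is that of the target region, which overlapped it by as few as 4 bases (Qrich2). Windows are counted once per region, so a window shared by regions, such as that of Adad2, is counted again. The median covariate coefficients over the same bands ran from 0.25 through -0.05 and -0.16 to -0.20. Over all 223 windows, low levels included, they were 0.16, -0.03, -0.10 and -0.00830, so the last band lay near 0 (29 of 61 above 0), and the median shares were 46.6%, 51.1%, 53.5% and 57.8%. CpG number correlated with the share at r = 0.338 and with the coefficient at r = -0.345 over 151 windows, given as descriptions. The mean level moved with CpG number too (r = -0.388), with band medians of 32.1%, 24.8%, 21.04% and 13.3%. Category moved with CpG number as well: many windows of the first band were of the 2-cell stage category, and many of the last were germline. The parts of level and category in the pattern were not tested. The printed windows of Zscan4d, Usp17la and Pramel31 belong to the first band, with shares of 34.6%, 42.9% and 46.6%. These and other Usp17-like and Pramel windows of that band are of families with near-identical copies. Their values may mix copies and are uncertain. Of the germline windows, Slc25a31 and Ddx4 belong to the last band, at 65.5% and 67.8%, and Tex19.1 and Sycp3 to the third, at 85.5% and 72.4%. All 7 germline_GGD windows were above the median of their own band. Single windows went against the trend of the band medians, such as Fkbp6 of germline_Dahlet (32 CpG sites, 42.2%) and Tex19.2 (2 sites, 59.4%).

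**Figure D5:**
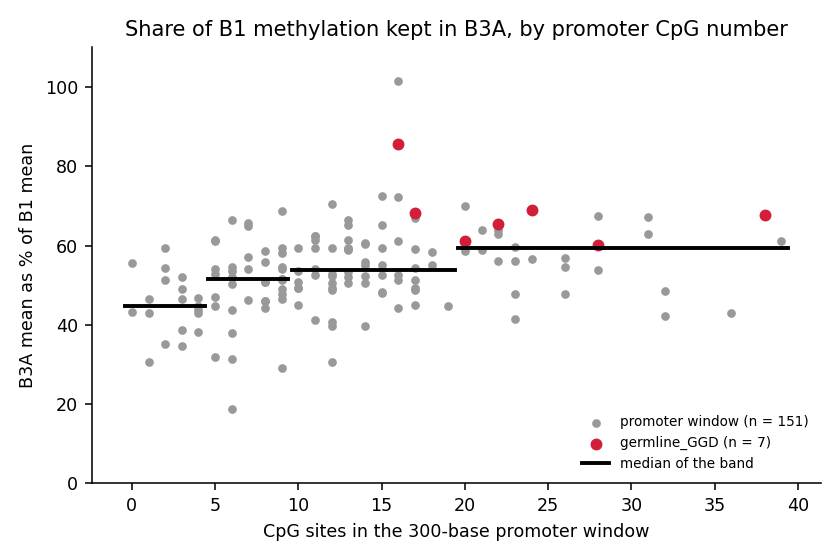
B3A mean as a percent of the B1 mean (y axis) for the 151 promoter windows with a mean of 5% or more, against the number of CpG sites in the 300-base window (x axis); black bars are band medians and red points germline_GGD. Medians rise from 44.7% to 59.3%, and the red points lie above the bar of their band.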

How the data were processed

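Targeted EM-seq libraries were processed by the authors with Trim Galore 0.6.4, Bismark and Bowtie2 against mm10, per the submitters' processing notes. The region table the authors deposited gives the average methylation of each region as a fraction, with some cells marked as not available and a coverage filter of 10 in its name. A second deposited table gives the fraction per CpG. No read counts are used here. Lines were grouped by the prefix of the column name. The members and lists were chosen with earlier results of these data known.

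Fractions were turned into log2((fraction + 0.01)/(1 - fraction + 0.01)), log2 odds computed here from the deposited fractions, and tested per region with limma 3.58.1 in R 4.3.3, raw and with the column's mean log2 odds as covariate. Percentages minus the column mean were tested in the same way. P-values were adjusted by Benjamini-Hochberg over the 773 regions, threshold 0.05. Library and category means were tested by two-sided permutation of lines (100000 resamples, smallest p 1e-05), category p-values adjusted over 11 categories. For the category covariate, residuals of the fit without the group were permuted. Nothing says that the lines share a culture, and p-values measure the spread between lines.

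Regions were drawn by a rule, which took the 10 largest raw differences called. It also took the 8 largest centred differences in each direction among called regions of 5% or more. Added to these were the largest and smallest per category and up to 4 per gene list. Not every region given by the rule is named. Csf2ra, Pfdn5 and Bcat2 (centred, B3A higher), for example, are left out, and lost their calls on log2 odds and by division. Others are said to be picked from their values. Genes were taken from RefSeq tables of GRCm38.p6 within 5000 bases, and 1336 of 1340 CpG positions in promoter windows fell on the C of a CG there. On simulated data over 773 regions, the covariate fit recovered 83 of 100 shifts of 1 log2 odds and 51 of 100 of 0.5, with 2 false calls among 573. The simulated residuals were normal, independent between regions and of equal spread in both groups. These counts need not hold for the real lines. Alternatives are listed in the closing section.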

Additional observations from a re-analysis of the deposited data

Results flagged for a closer look

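Among the 6 B1 lines with a final N, B1_B37N had a library mean of 14.3%, far below the others, which lay between 25.3% and 31.3%. Chance marks about 1 in 20 groups in this way. The region tests without this line are among those with 1 line left out.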

How the results depend on the processing

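The library mean difference kept its direction and its call under every alternative tried for it. With 1 line left out in turn the library mean difference ran from 10.9 to 12.4 points (largest p 0.00012). The counts then ran from 630 to 664 for raw calls with B1 higher (0 to 0 with B3A higher), 244 to 261 and 335 to 349 after subtraction, and 0 to 3 and 0 to 5 with the covariate (B1 and B3A higher). Lines with a final N alone gave 307 raw calls, from fewer lines, and averages recomputed from the CpG table gave 1 raw call with B3A higher. Dividing by the library mean gave 45 and 228 calls, and centring on log2 odds 205 with B3A higher.

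The covariate counts of 0 became, with B1 and B3A higher in turn, 6 and 3 with only final-N lines, 2 and 0 with values in every column, 2 and 1 at 50% of columns, 5 and 5 from the CpG table, 2 and 6 with final N as a term, and 1 and 1 on untransformed percentages. The cause was not tested. Coefficients near 0 changed sign for Mov10l1 (0.00153 without final-N lines), for Taf7l (0.0259 there) and for Piwil2 (0.042 there, 0.11 with all 4 prefixes and 0.00115 with an offset of 0.001). With 1 line left out the Piwil2 coefficient ran from -0.137 to 0.0918, above 0 without B1_B22, B1_B39, B1_B43N, B3A_9N, B3A_10N or B3A_11N. The single Lhx9 call was lost without B3A_29N (limma adjusted p = 0.0501), without final-N lines (0.13), with only final-N lines (0.23), with lines of 1 title (0.0664) and on untransformed percentages (0.0883). With only final-N lines, which are fewer, raw calls were also lost at Dazl, Ddx4, Mov10l1, Piwil2, Slc25a31, Taf7l, Asz1, Gata4 and Dnmt3l, and without them at Ddx4 (adjusted p from 0.0528 to 0.332).

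Categories depended on how the shared level was removed, and the cause was not tested. In points after subtraction, B6J vs 129 (0.49) gave -0.17 without final-N lines, -0.29 by medians, -0.88 by division and -0.16 by covariate. germline_Dahlet (0.09) gave -1.07 with only final-N lines, -0.12 with lines of 1 title, -0.99 by medians, -3.04 by division and -1.03 by covariate. imprinting (0.53) gave -0.75, -14.6 and -0.67 for lines of 1 title, division and covariate. Cancer (1.44) gave 0.64 by medians and 0.20 by covariate. aging_Meer (0.67) gave -1.47 and 0.30 in the same way. Lineage-associated (-1.27) gave 2.46 by division and -0.12 by covariate, aging_Young (-4.27) -0.998 and -0.0714, and nPSC-associated (-11.4) -1.995 and 0.0935. aging_shared (-3.20) gave -3.60 without final-N lines and 0.32 by covariate. germline_GGD (-2.46) gave -1.46 without final-N lines (adjusted p = 0.12) and -0.11 by medians. Values by division are percent of the library mean, not points. Raw, with only final-N lines, germline_GGD gave 7.88 points (adjusted p = 0.0917) and nPSC-associated -0.10.

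With the covariate, the categories gave these values without final-N lines: 2-cell stage 2.14, germline_Dahlet -0.74, germline_GGD -1.54, imprinting 2.49 and nPSC-associated -0.13. With only final-N lines B6J vs 129 gave 0.95, aging_shared -0.37, imprinting 1.84 and nPSC-associated -0.0787. Lines of 1 title gave 1.85 for 2-cell stage and -1.01 for germline_Dahlet. By medians the values were 0.14 for 2-cell stage, -1.37 for Cancer, -0.95 for aging_Meer, -1.11 for aging_shared, -1.98 for germline_Dahlet, -3.23 for germline_GGD and -0.00342 for nPSC-associated. With 1 line left out the covariate values ran 1.49 to 1.98 for 2-cell stage, -0.45 to -0.03 for B6J vs 129, 0.13 to 0.26 for Cancer, -0.28 to 0.23 for Lineage-associated (above 0 without B3A_37N), 0.22 to 0.36 for aging_Meer (called without B3A_35N), -0.16 to -0.02 for aging_Young, 0.17 to 0.41 for aging_shared, -1.20 to -0.85 for germline_Dahlet, -3.44 to -2.71 for germline_GGD, -1.71 to 0.10 for imprinting (above 0 without B3A_7N) and 0.02 to 0.13 for nPSC-associated.

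As a percent of the library mean, without final-N lines aging_Meer gave 1.46, aging_shared -8.18 and imprinting 5.59. With only final-N lines Cancer gave 1.23, aging_Meer 1.602, aging_shared -16.5 and germline_GGD -28.4 (adjusted p = 0.0647). Lines of 1 title gave 7.21 for 2-cell stage, -10.1 for aging_shared (adjusted p = 0.0514 for both) and -29.9 for imprinting (adjusted p = 0.0164).

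Category values by division, by the covariate and within subsets under either were chosen after seeing the data, as were the tests of whether the group difference varied with the final N, in which limma called 0 regions raw (10 at an unadjusted p under 0.05) and 0 with the covariate (34). No paired analysis was possible because a line's number only names it and pairs no B1 line with a B3A line. Depth is unknown, and no counting error is given for single values or for small differences at low levels.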
